A study of Caenorhabditis elegans with 24 samples.

Results

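Caenorhabditis elegans worms that carried daf-2(e1370) together with htz-1(bon101) were compared with wild-type N2 worms by RNA-seq of whole animals on the first day of adulthood, with 4 libraries of each genotype. These are 8 of the 24 libraries of the study. The comparison covers every gene whose mean value over all libraries reached 3, which 14482 of 21689 genes did, and the other 7207 were not tested. It asks what state the double mutant is in, and for which genes its change goes past the larger of the changes in the single mutants. The groups set beside one another are daf-2(e1370);htz-1(bon101), htz-1(bon101) alone, daf-2(e1370) alone, the double mutant with daf-16(mu86) added, called the triple mutant here, and N2. Libraries of daf-16(mu86) with daf-2(e1370) enter the mean that chose the tested genes, the shared estimate of the spread and the description of the libraries. Values of genes and lists are not given for them. All worms were grown at 20 °C on OP-50-1 bacteria, and the sources used here do not give the molecular lesion of bon101. Each genotype is known only as its label gives it.

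DAF-2 is the insulin and IGF-1 receptor of the worm. Its signal runs through a kinase cascade that keeps the FOXO transcription factor DAF-16 out of the nucleus, so that worms with a weak receptor hold DAF-16 in their nuclei, turn on stress, defence and fat metabolism genes and live long. HTZ-1 is H2A.Z, a variant of histone H2A that a SWR1-type remodelling complex places in the nucleosomes around the promoters of many genes, and it is known in worms for its part in embryonic and germline development.

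Values are regularized log2 (rlog) levels, so 1 unit is a doubling, and the transformation shrinks differences of genes with few reads. They allow no count or depth to be recovered, so the depth of each library is unknown and levels are not compared between genes. A difference is given with its standard error (SE) from limma, and a gene is called when its p, adjusted over all tested genes by the Benjamini-Hochberg method, is under 0.05. Nothing in the labels says that the 4 libraries of a genotype came from separate cultures, so the p-values speak for the spread among these libraries, which may be technical.

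Library medians lay between 7.42 and 7.81, and libraries of 1 genotype correlated at 0.949 to 0.991. The double mutants lay apart from every other group on the second principal component, at −53.9 to −69.6, and on the first they lay between the htz-1 single mutants and wild type. Several libraries of other genotypes stood apart from their own groups. Over 28 genes known to be induced by DAF-16, replicate 3 of the triple mutant averaged 10.29 where the other triple mutants averaged 8.19 to 8.23, although its label states a daf-16 mutation. Replicate 1 of daf-2 was at 8.55 on the first component and the other daf-2 libraries at 63.9 to 69.0, and replicate 1 of wild type was at 58.6 beside 90.4 to 94.7 in the others. Where leaving out these libraries moved a printed count by over 1.5 times, the count without them is given, and values of the triple mutant are shown per library and not tested.

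The transcripts of the mutated genes do not check the labels, since both alleles can leave an RNA. htz-1 itself had 11.35, 11.34, 11.35 and 11.28 in the double mutants, 11.21 to 11.53 in htz-1, 10.67 to 11.30 in daf-2 and 11.14, 10.64, 10.62 and 11.23 in wild type. Its difference from wild type was 0.42 ± 0.16 (adjusted p = 0.0275), a call that ended in 8 of 32 alternative settings. daf-2 differed by 0.03 ± 0.31 (adjusted p = 0.955). Markers of adult tissues were present in all groups: the intestinal esterase ges-1 averaged 10.55 in the double mutants and 9.13 in wild type, the body wall myosin heavy chain unc-54 averaged 13.17 and 14.16, and the oocyte yolk receptor rme-2 averaged 13.62 and 14.20. In whole worms, fewer cells of a type and less RNA per cell cannot be told apart.

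In the double mutant, 3733 genes were higher than in wild type, 25.8% of those tested, and 3493 were lower, 24.1%, so that 7226 genes (49.9%) differed. Of these, 2338 and 2296 differed by at least 1 log2 unit, and the double-mutant libraries did not overlap the wild-type libraries for 3194 of the higher and 2963 of the lower genes, where 6632 of all tested genes (45.8%) were apart in this way. The calls rest on these same libraries, so the separation of called genes is no separate evidence. The median difference over all tested genes was 0.04. For comparison, htz-1 alone had 3830 higher genes (26.4%) and 3552 lower genes (24.5%), and daf-2 alone had 931 (6.43%) and 862 (5.95%). Set against htz-1, the double mutant had 1672 higher genes (11.5%) and 1164 lower genes (8.04%), and set against daf-2 it had 2950 (20.4%) and 2918 (20.1%). Among the genes called higher in the double mutant, the larger of the single-mutant estimates was that of htz-1 for 2964 and that of daf-2 for 769, and among those called lower for 3028 and 465. The median difference of the higher genes was 1.22 in the double mutant, 1.02 in htz-1 and 0.33 in daf-2, and that of the lower genes was −1.41, −1.36 and −0.43.

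The gene groups did not share a direction. Genes for DAF-16 targets, insulin-like peptides, neuropeptides, antimicrobial peptides, cytochromes P450 and core histones were mostly higher in the double mutant. Cuticle collagens, major sperm proteins, subunits of the vacuolar proton pump and aquaporins were mostly lower. The 178 tested nuclear hormone receptors, transcription factors with lipid-type ligands, had 72 members higher and 19 lower, and the 78 tested ribosomal proteins had 0 higher and 4 lower.

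**Figure D1:**
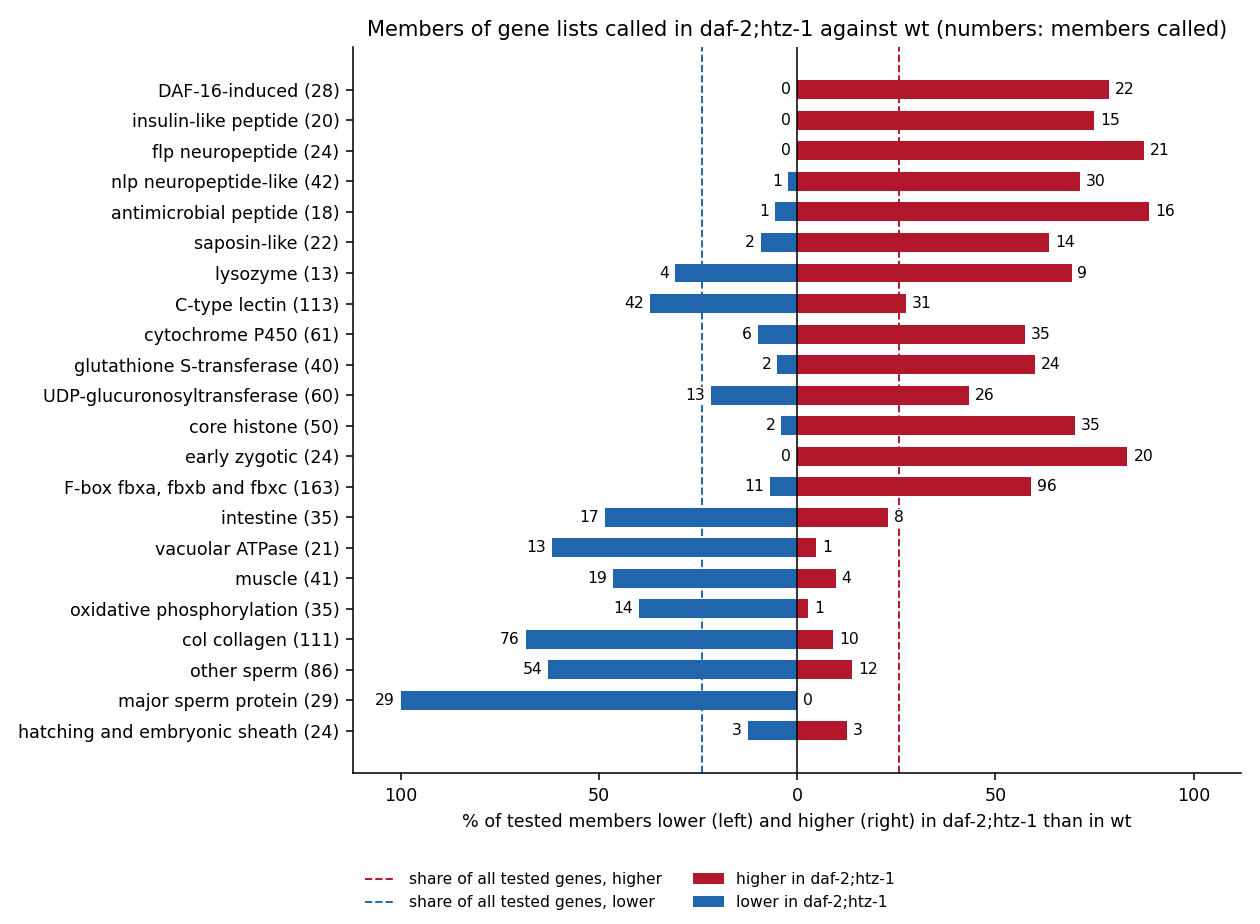
Share of the tested members of 22 gene lists called higher (right) or lower (left) in the daf-2;htz-1 double mutant than in wild type, in percent, with the number of members called at each bar and the list size in brackets. The dashed lines mark the shares over all tested genes, 25.8% higher and 24.1% lower, and all 29 major sperm protein genes fall to the left.

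A gene was counted as beyond both single mutants when the double mutant differed from wild type, from daf-2 and from htz-1 in 1 direction, by the largest of the 3 p-values adjusted over all tested genes. This held for 270 genes on the higher side (1.86%) and 83 on the lower side (0.573%). By estimate alone, without the test, the double mutant lay past both single mutants for 2240 of its higher and 1450 of its lower genes. Of the 270, 83 were also called higher in both single mutants, 76 in htz-1 only, 11 in daf-2 only and 100 in neither; of the 83, these numbers were 40, 19, 3 and 21. The median distance past the larger single mutant was 1.42 log2 units for the higher genes, from 0.50 to 8.37, and −1.27 for the lower genes. The double-mutant libraries lay outside all 12 libraries of htz-1, daf-2 and wild type for 263 of the 270 and 74 of the 83, where 1091 of all tested genes (7.53%) did so. The sets were chosen on differences among these same libraries, so this separation largely follows from the choice and is no separate evidence.

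The 270 and 83 genes were chosen for values of the double mutant past both single mutants, which favours a departure from the sum of the single changes, so the next counts describe the sets and are not a result about them. The median change of the 270 genes was 2.47 in the double mutant, and the median of their summed single-mutant changes was 1.5. For the 83 these medians were −2.52 and −1.80. Gene by gene, the double mutant was called above the sum of the single changes for 91 of the 270 and below it for 3, and below it for 27 of the 83. Over all tested genes the same test was positive for 1126 (7.78%) and negative for 806 (5.57%). The count of 270 depends on single libraries: it was 165, 178 and 177 without double-mutant replicates 1, 3 and 4, and 349 without replicate 3 of the triple mutant. The count of 83 was 50 without double-mutant replicate 3, 106 without replicate 1 of wild type and of daf-2, and 97 without replicate 3 of the triple mutant.

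The genes farthest past both single mutants on the higher side included genes at the lowest levels in wild type. The mean used to choose the genes tested took in the double mutants, so a gene low in other groups could pass through them. Such a gene is tested because of the values that are then called, and D1086.9 and spp-9 below are of this kind. The wild-type mean was under 3 for 44 of the 270 higher genes and 0 of the 83 lower genes. D1086.9, an uncharacterized gene on chromosome V (WBcel235, 14104270 to 14106330), had 10.34, 10.72, 9.55 and 10.43 in the double mutants, 1.70, 2.36, 1.01 and 1.22 in htz-1, 4.19, 0.79, 1.37 and 1.21 in daf-2, 1.86, 0.96, 7.01 and 1.24 in the triple mutants and 1.09, 1.05, 1.09 and 1.24 in wild type. All 4 double mutants were above every library of the other groups, and 1 daf-2 and 1 triple mutant stood above the rest of their groups. It was 9.14 ± 0.85 higher than in wild type (adjusted p = 5.94e-09) and 8.37 ± 0.85 past the larger single mutant (adjusted p = 1.36e-06), and it exceeded the sum of the single changes by 7.91 (adjusted p = 0.000115).

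Saposin-like proteins, which can permeabilize bacterial membranes, followed. spp-9 had 10.99, 10.47, 11.05 and 11.15 in the double mutants, 2.51, 2.36, 2.53 and 1.64 in htz-1, 3.77, 4.86, 6.43 and 6.02 in daf-2, 2.17, 1.36, 7.64 and 1.67 in the triple mutants and 1.5, 1.46, 1.5 and 1.66 in wild type. Every double mutant lay above every other library, and the daf-2 libraries were between them and the remaining groups. Its change was 9.38 ± 0.83 (adjusted p = 2.42e-09), of which 5.65 ± 0.83 was past daf-2 (adjusted p = 0.000196). spp-12 had 11.69, 10.93, 11.63 and 11.95 in the double mutants, 4.56 to 4.85 in htz-1, 6.39 to 6.96 in daf-2 and 3.35 to 3.84 in wild type. Its distance past daf-2 was 4.91 ± 1.05 (adjusted p = 0.00839), a call lost when replicate 1, 2 or 4 was left out of all genotypes.

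ilys-3 encodes an invertebrate-type lysozyme that breaks down bacterial cell walls. It had 10.50, 10.28, 9.78 and 9.97 in the double mutants, 6.48, 7.18, 5.93 and 6.22 in htz-1, 5.65, 5.92, 5.97 and 6.40 in daf-2, 4.64, 3.26, 6.98 and 4.03 in the triple mutants and 2.78, 2.51, 2.01 and 2.98 in wild type. The single mutants overlapped each other at an intermediate level, and the double mutants were above both. The change was 7.56 ± 0.50 (adjusted p = 1.81e-11), 3.68 ± 0.50 past the larger single mutant (adjusted p = 7.95e-05).

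npr-26, a neuropeptide receptor gene by its name, was not called in either single mutant. It had 8.44, 8.16, 8.17 and 8.25 in the double mutants, 5.31, 4.81, 5.35 and 4.85 in htz-1, 4.53, 3.85, 4.09 and 4.66 in daf-2 and 4.27, 5.44, 4.48 and 5.17 in wild type. Only the double mutants stood out among these 16 libraries, by 3.42 ± 0.31 from wild type (adjusted p = 3.31e-09) and 3.18 ± 0.31 past the larger single mutant (adjusted p = 7.21e-07).

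H39E23.3 lies next to D1086.9 on chromosome V (14107811 to 14110051) and had the largest rise of all tested genes. It had 15.44, 15.64, 15.47 and 15.35 in the double mutants, 4.16, 5.11, 3.70 and 3.64 in htz-1, 11.73, 11.67, 12.15 and 11.59 in daf-2 and 3.12, 3.24, 3.13 and 2.67 in wild type. The htz-1 libraries were close to wild type and the daf-2 libraries far above it. The double mutants exceeded wild type by 12.43 ± 0.92 (adjusted p = 1.25e-10) and daf-2 by 3.69 ± 0.92 (adjusted p = 0.0268). That distance stayed at 3.60 to 3.73 but was no longer called without any 1 of the 4 double mutants or without replicate 1, 2 or 4 of daf-2.

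Several other large rises were high in daf-2 as well. cpr-2, a cathepsin B-like protease, had 13.13, 12.91, 13.01 and 13.50 in the double mutants, 3.96, 3.37, 2.21 and 4.34 in htz-1, 11.36, 10.92, 12.80 and 12.64 in daf-2, 3.62, 3.85, 12.60 and 3.40 in the triple mutants and 2.80, 2.26, 2.31 and 2.50 in wild type. The double mutants were just above daf-2, htz-1 was near wild type, and replicate 3 of the triple mutant was with daf-2. The rise was 10.67 ± 1.18 (adjusted p = 8.13e-08). The lectin clec-18 had 9.85 to 11.20 in the double mutants, 1.42 to 2.54 in htz-1, 8.65 to 12.41 in daf-2 and 1.79 to 2.01 in wild type, and the aspartyl protease gene asp-18 rose by 6.47 ± 0.74. fipr-26 was intermediate in both single mutants instead, with 12.32 to 13.63 in the double mutants, 9.22 to 10.82 in htz-1, 7.56 to 9.38 in daf-2 and 2.93 to 4.92 in wild type.

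Other genes far beyond both single mutants were dao-6, fipr-23, which belongs to a family of small secreted peptides, WBGene00189961 and the pseudogene WBGene00014732, with distances of 3.8, 3.32, 4.78 and 4.82. WBGene00189961 overlaps lad-2 on the opposite strand, and these libraries do not mark strand, so reads of the pair cannot be told apart. dao-6 lost its call without replicate 1 of all genotypes.

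**Figure D2:**
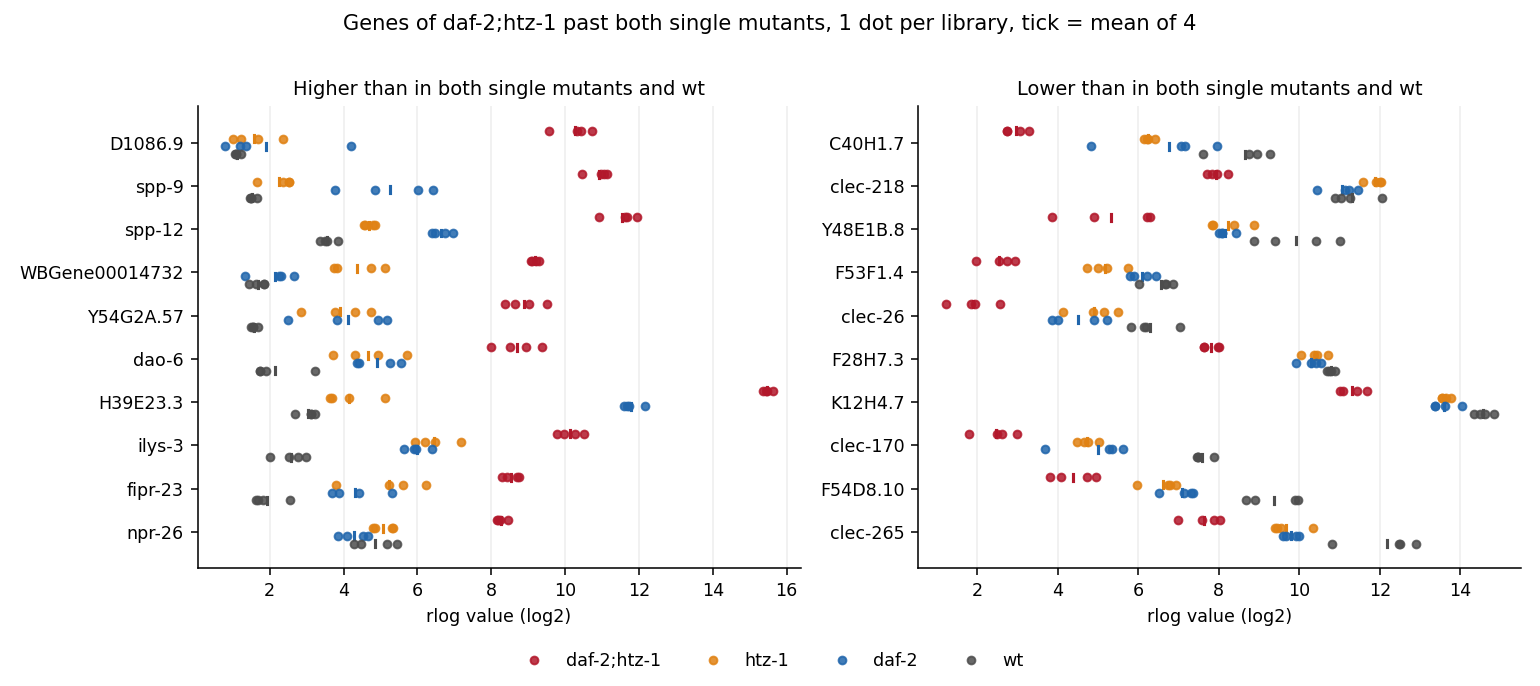
rlog values of the 10 genes farthest beyond both single mutants on the higher side and the 10 farthest on the lower side, with 1 point per library and a tick at the mean of 4, for daf-2;htz-1, htz-1, daf-2 and wild type. For spp-9 the double mutants sit at 10.47 to 11.15 and every other library at 6.43 or below, and for F28H7.3 they sit at 7.64 to 8.02 with all other libraries above 9.9.

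On the lower side, 4 of the 10 genes farthest beyond both single mutants were C-type lectins, secreted carbohydrate-binding proteins of gut and cuticle. clec-218 had 8.22, 7.82, 7.72 and 7.95 in the double mutants, 12.01, 11.59, 12.02 and 11.90 in htz-1, 10.43, 11.46, 11.13 and 11.24 in daf-2, 12.25, 11.60, 12 and 11.94 in the triple mutants and 12.05, 11.03, 10.88 and 11.26 in wild type. Both single mutants overlapped wild type, and the double mutants were below all other libraries. The gene fell by 3.38 ± 0.25 on the log2 scale (adjusted p = 9.77e-11) and lay −3.14 ± 0.25 past the larger single change (adjusted p = 1.1e-08). The others were clec-26 with a difference of −4.40 from wild type, clec-170 with −5.10 and clec-265 with −4.54.

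F28H7.3 had 7.98, 8.02, 7.64 and 7.64 in the double mutants, 10.35, 10.70, 10.04 and 10.44 in htz-1, 9.91, 10.54, 10.42 and 10.28 in daf-2 and 10.78, 10.89, 10.70 and 10.73 in wild type. Both single mutants were slightly under wild type and the double mutants far under both. It changed by −2.96 ± 0.16 (adjusted p = 6.55e-13) and lay −2.47 ± 0.16 past the larger single change (adjusted p = 4.11e-10). C40H1.7 was at 2.75 to 3.28 in the double mutants, 6.14 to 6.43 in htz-1, 4.83 to 7.96 in daf-2 and 7.61 to 9.27 in wild type, with a change of −5.68 ± 0.45. K12H4.7 fell by 3.27 ± 0.17 on the log2 scale, and it overlaps K12H4.2 on the opposite strand.

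The nutrient transporter pept-1 and the lysozyme ilys-5 were also beyond both single mutants. pept-1 encodes the gut transporter that takes up dipeptides and tripeptides from food. It had 7.69, 8.25, 6.80 and 7.67 in the double mutants, 9.12, 10.03, 9.82 and 8.94 in htz-1, 11.04, 12.03, 12.15 and 11.61 in daf-2, 11.03, 11.82, 11.24 and 11.39 in the triple mutants and 12.29, 13.23, 13.23 and 12.49 in wild type. The groups were ordered double mutant, htz-1, daf-2 and wild type from low to high without overlap. The change was −5.21 ± 0.30 (adjusted p = 2.4e-12), −1.88 ± 0.30 past htz-1 (adjusted p = 0.000419). ilys-5, an invertebrate-type lysozyme like ilys-3, had 9.02, 9.83, 9.79 and 9.16 in the double mutants, 15.77, 16.50, 16.32 and 15.82 in htz-1, 11.44, 11.06, 11.47 and 11.07 in daf-2 and 15.58, 15.50, 15.56 and 15.76 in wild type. It was low in the daf-2 mutants and lower still in the double mutants, while htz-1 lay above wild type, with a change of −6.15 ± 0.25 (adjusted p = 5.28e-15) and −1.80 ± 0.25 past daf-2 (adjusted p = 0.000112).

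The genes beyond both single mutants were unevenly placed. Chromosome V held 103 of the 270 higher genes, 38.1%, and 19.2% of all tested genes. The share of a chromosome's tested genes that lay beyond on the higher side was 3.71% for V, 1.87% for IV, 1.69% for X, 1.54% for II, 1.05% for III and 0.995% for I. On the lower side chromosome X had 21 genes, 1.07% of its tested genes, V had 25 (0.9%) and I had 3.

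**Figure D3:**
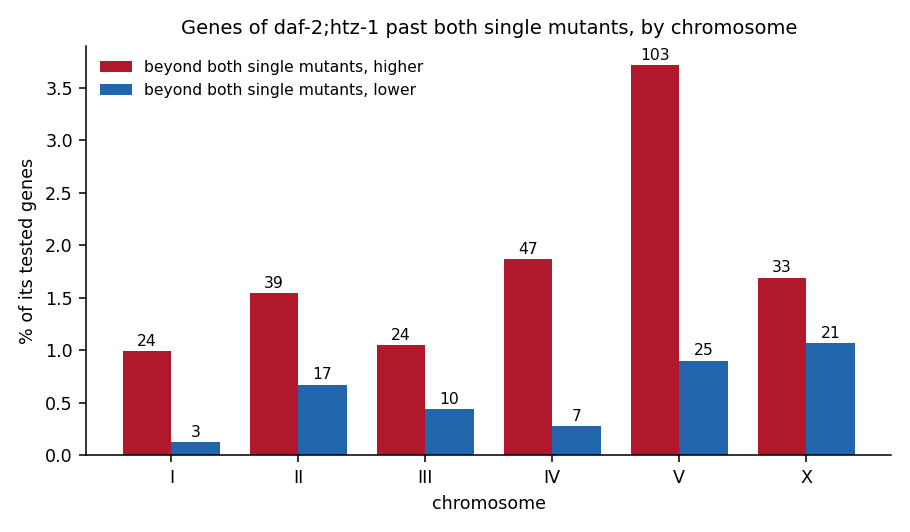
Share of the tested genes of each chromosome, in percent, that lay beyond both single mutants on the higher side or on the lower side in daf-2;htz-1, with the number of genes above each bar. Chromosome V has the highest bar on the higher side, 103 genes or 3.71%.

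The first group examined was DAF-16-induced genes, those known from earlier work to depend on DAF-16 when insulin signalling is low. Of 28 tested members, 22 were higher in the double mutant than in wild type and 0 lower, with a median of 2.2, where the medians were 0.68 in htz-1 and 1.40 in daf-2. In htz-1 12 were called higher and 2 lower, and in daf-2 19 and 0. The double mutant was higher than htz-1 for 19 of the 28. Beyond both single mutants lay 7 members, ctl-1, fat-5, ftn-1, hil-1, tts-1, cdr-2 and djr-1.2, and 10 did without replicate 3 of the triple mutant. The call of ctl-1 (adjusted p = 0.0492) ended in 22 of 31 settings, each omission of a double-mutant, htz-1 or daf-2 library among them, and those of the others ended in 1 to 4. The mean over the list was 11.03, 11, 10.88 and 11.02 in the double mutants, 9.05 to 9.36 in htz-1, 9.87 to 10.15 in daf-2, 8.20, 8.19, 10.29 and 8.23 in the triple mutants and 7.58 to 7.84 in wild type. These 5 groups did not overlap, apart from replicate 3 of the triple mutant.

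mtl-1, a metallothionein that binds metal ions, had 15.65, 15.21, 15.39 and 15.58 in the double mutants, 13.66, 13.71, 12.96 and 14.17 in htz-1, 13.31, 12.75, 12.56 and 12.84 in daf-2, 8.87, 7.26, 14.51 and 7.28 in the triple mutants and 5.07, 4.70, 4.69 and 4.77 in wild type. The single mutants were far above wild type and the double mutants above both. The rise was 10.65 ± 0.88 (adjusted p = 7.13e-10), beside 8.82 in htz-1 and 8.06 in daf-2, and the distance of 1.83 past htz-1 was not called (adjusted p = 0.57). The double mutant was 6.23 under the sum of the single changes (adjusted p = 0.00166). sod-3, the mitochondrial manganese superoxide dismutase, had 9.35, 9.33, 9.27 and 9.35 in the double mutants, 5.04, 4.68, 4.73 and 5.81 in htz-1, 8.69, 8.84, 8.80 and 9.17 in daf-2 and 4.80, 5.34, 5.30 and 5.92 in wild type. It rose by 3.98 ± 0.65 (adjusted p = 1.84e-05), and its htz-1 libraries overlapped wild type. sod-3 overlaps C08A9.3 and lido-1 on the opposite strand.

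ftn-1, a ferritin subunit that stores iron, had 14.49, 13.93, 14.15 and 14.67 in the double mutants, 11.59, 11.37, 11.67 and 10.92 in htz-1, 11.85, 11.08, 11.12 and 11.33 in daf-2 and 8.11, 8.05, 8.32 and 8.38 in wild type. The single mutants overlapped each other between the outer groups. The change was 6.10 ± 0.65 (adjusted p = 4.36e-08), 2.92 ± 0.65 past the larger single mutant (adjusted p = 0.0113), a call lost without replicate 1, 2 or 4 of all genotypes. tts-1, a long noncoding RNA found on ribosomes of long-lived daf-2 worms, had 11.43, 10.98, 11.40 and 11.29 in the double mutants, 8.75 to 9.17 in htz-1, 8.13 to 8.87 in daf-2 and 2.74 to 4.33 in wild type. Its distance past the larger single mutant was 2.31 ± 0.53 (adjusted p = 0.0147), not called in 4 settings with 2.26 to 2.34, among them the omission of replicate 1 or 3 of the double mutant. The lysozyme lys-7 rose by 6.95 ± 0.45 (adjusted p = 1.16e-11). The 6 members of the list with no call included the small heat shock protein hsp-12.6 with 0.06, the glyoxylate cycle enzyme icl-1 with 0.07 and the glycolytic enzyme gpd-2 with 0.25.

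Of 15 tested genes known to be repressed through DAF-16, 4 were higher and 6 lower, with a median of −0.03. The share higher was near the 25.8% over all tested genes, and 24.1% of all tested genes were lower. dod-24, a CUB-like domain gene and a standard member, had 4.59, 4.04, 4.62 and 5.19 in the double mutants, 8.23, 8.65, 8.11 and 7.85 in htz-1, 4.50, 4.98, 5.0 and 4.42 in daf-2 and 7.53, 8.55, 8.52 and 8.20 in wild type. Double mutants overlapped daf-2, and htz-1 overlapped wild type, with a change of −3.59 ± 0.24 in the double mutant.

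**Figure D4:**
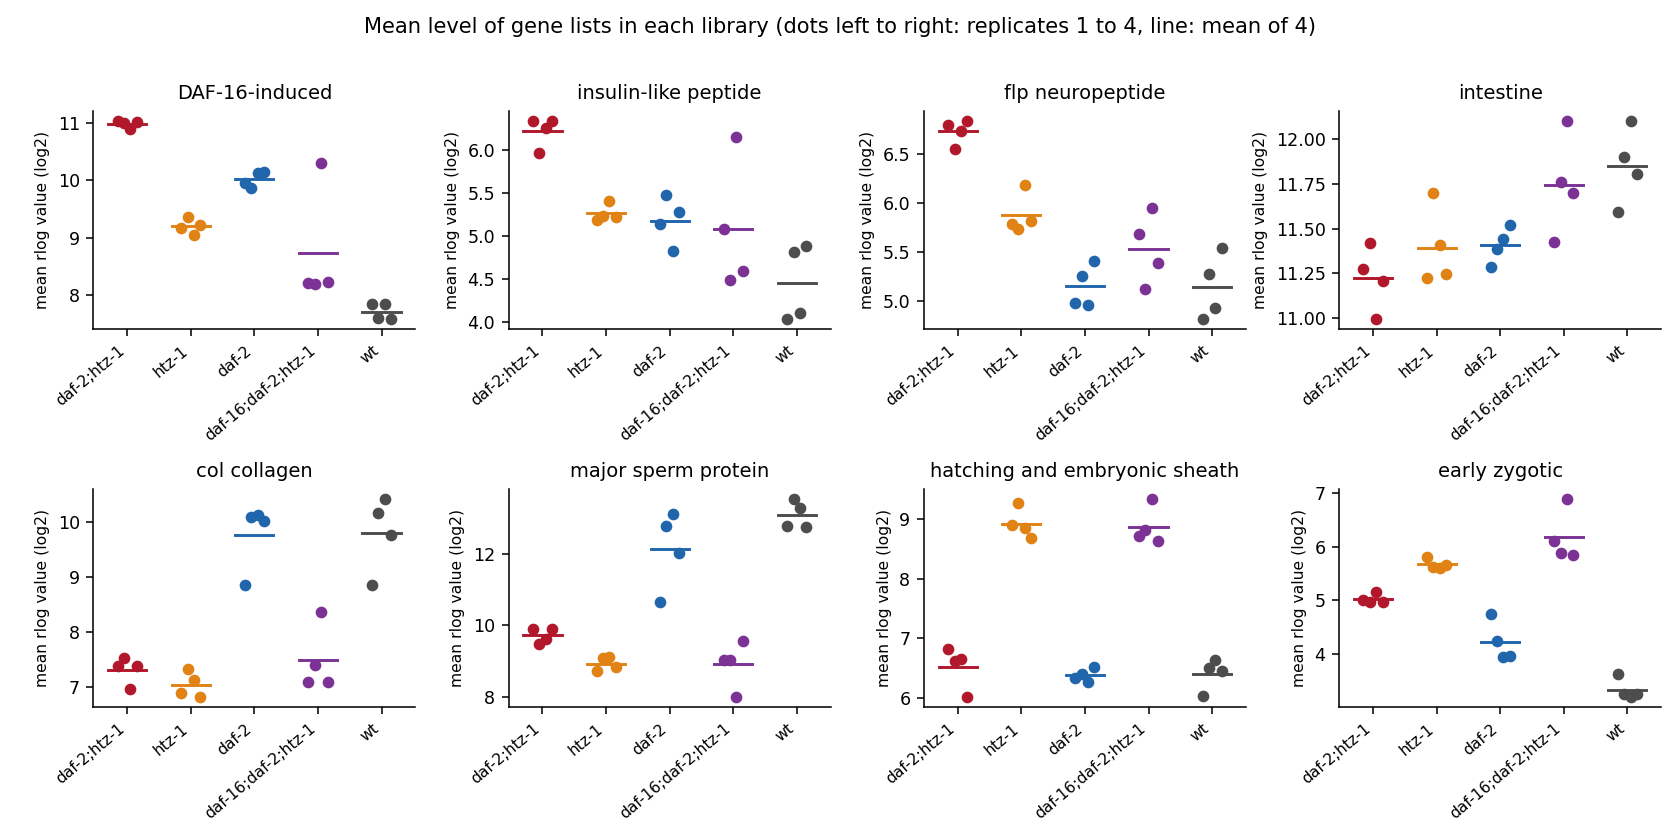
Mean rlog value over the tested members of 8 gene lists in each library, with dots for libraries and a line at the mean of 4, for daf-2;htz-1, htz-1, daf-2, the triple mutant and wild type. The DAF-16-induced list is highest in the double mutants (10.88 to 11.03), with replicate 3 of the triple mutant at 10.29, and the hatching list is high in htz-1 and the triple mutant but at 6.0 to 6.82 in the double mutants.

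The insulin pathway carries the signal from the receptor to DAF-16. Of 22 tested signalling components, 5 were higher and 3 lower, with a median of 0.09. akt-2, a kinase that phosphorylates DAF-16, rose by 1.73 ± 0.18 and was the member beyond both single mutants, with a distance of 0.74 (adjusted p = 0.021). That call was lost in 10 of 31 settings, with values of 0.63 to 0.84, among them single omissions of double-mutant replicates 2 and 3, htz-1 replicate 1 and daf-2 replicates 1 and 2, and the omission of replicate 1 of wild type and of daf-2 together. The shares of the list called either way were close to those over all tested genes or below them. The kinase gene sgk-1 fell by 0.97 ± 0.14 on the log2 scale (adjusted p = 3.6e-06). daf-16 had 9.94, 10.34, 10.22 and 10.18 in the double mutants, 9.64 to 10.22 in htz-1, 10.23 to 10.48 in daf-2 and 10.62, 10.50, 11.26 and 10.59 in wild type. Its change was −0.57 ± 0.21 (adjusted p = 0.0247), no longer called without double-mutant replicate 1 or without wild-type replicate 3 (5 settings in all, −0.62 to −0.40).

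Insulin-like peptides, the ligands of DAF-2, were mostly higher. Of 38 genes on the list 20 were tested, and 15 of these were higher and 0 lower, with a median of 1.67, where the medians were 0.62 in htz-1 and 0.39 in daf-2. The single mutants had 8 and 4 members called higher. ins-11 had 9.45, 8.46, 9.23 and 9.03 in the double mutants, 9.4, 8.45, 8.69 and 9.22 in htz-1, 8.63, 7.22, 6.36 and 7.44 in daf-2 and 5.80, 3.37, 2.42 and 2.87 in wild type. The double mutants overlapped htz-1 and were above wild type by 5.43 ± 0.60 (adjusted p = 8.4e-08). ins-24 had 5.93, 5.47, 5.95 and 6.20 in the double mutants, 1.28 to 3.17 in htz-1, 2.27 to 3.70 in daf-2 and 1.52, 3.11, 3.78 and 4.39 in wild type. It was high in the double mutants only among these groups, by 2.69 ± 0.58 from wild type (adjusted p = 0.000468) and 2.82 past the single mutants (adjusted p = 0.00922), a distance not called without replicate 1, 2 or 4 of all genotypes. ins-26 and ins-30 also lay beyond both single mutants, with calls that ended in 10 of 30 and 14 of 31 settings, each omission of a double-mutant library among them, at distances of 2.09 to 2.65 and 1.64 to 1.97. Without replicate 1 of wild type and of daf-2, 1 member lay beyond.

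Neuropeptide genes showed a similar share. Of 24 tested FMRFamide-like peptides 21 were higher and 0 lower, with a median of 1.44 in the double mutant, 0.51 in htz-1 and 0.00 in daf-2. Their mean was 6.79, 6.54, 6.73 and 6.83 in the double mutants, 5.74 to 6.18 in htz-1, 4.96 to 5.41 in daf-2 and 4.81 to 5.54 in wild type, with daf-2 and wild type overlapping. flp-34 had 8.86, 8.55, 9.24 and 8.71 in the double mutants, 6.49 to 7.98 in htz-1, 5.57 to 6.07 in daf-2 and 2.89 to 4.12 in wild type, a rise of 5.36 ± 0.43 (adjusted p = 5.34e-10). flp-8 rose by 2.44 ± 0.29 and lay 1.40 past htz-1 (adjusted p = 0.00655), not called without replicate 1 or 4 of all genotypes. Of 42 tested neuropeptide-like genes 30 were higher and 1, nlp-4 with −1.48, was lower, where 2 were lower without replicate 1 of wild type and of daf-2. nlp-39 rose most, by 8.98 ± 0.52 (adjusted p = 3.51e-12), with 10.76 to 11.62 in the double mutants, 8.79 to 10.27 in htz-1, 3.15 to 6.73 in daf-2 and 2.26 to 2.49 in wild type.

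Among 35 synaptic and other neuronal genes 10 were higher, a share near the 25.8% over all tested genes, and 2 were lower, with a median of 0.38. unc-31, which is needed for release of neuropeptides from dense core vesicles, had 8.91, 9.03, 9.02 and 8.98 in the double mutants, 9.62, 9.50, 9.09 and 8.93 in htz-1, 6.05, 6.27, 6.37 and 6.15 in daf-2 and 6.18, 6.20, 6.30 and 6.16 in wild type. Double-mutant values overlapped those of htz-1, and daf-2 overlapped wild type, with a rise of 2.77 ± 0.20 (adjusted p = 1.21e-10). egl-3, a proprotein convertase that processes neuropeptides, rose by 1.04 ± 0.25. The part of cell number in these differences was not tested, and the synaptic list averaged 6.86 to 6.94 in the double mutants, 6.71 to 7.05 in htz-1, 6.21 to 6.51 in daf-2 and 6.15 to 6.71 in wild type.

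Defence genes differed by class. Of 18 tested antimicrobial peptides 16 were higher and 1 lower, with a median of 2.78 in the double mutant, 2.35 in htz-1 and 0.82 in daf-2. cnc-4, a caenacin, had 12.32, 11.26, 11.37 and 11.83 in the double mutants, 11.10, 11.32, 10.79 and 10.73 in htz-1, 8.33, 6.23, 6.08 and 6.61 in daf-2 and 4.2, 5.57, 3.20 and 4.53 in wild type. Values of the double mutants and htz-1 overlapped, and the rise was 7.32 ± 0.47. abf-2, a defensin-like peptide, rose by 6.34 ± 0.41 and lay 1.96 past the larger single mutant (adjusted p = 0.00769), not called without replicate 1 or 4 of all genotypes, and it overlaps C50F2.2 on the opposite strand. The lower member was abf-4 with −2.18 ± 0.49.

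Lysozymes split: of 13, 9 were higher and 4 lower, among them lys-5 with −3.55, lys-6 with −2.19 and ilys-5. Of 22 saposin-like genes 14 were higher and 2, spp-4 with −0.96 and spp-8 with −0.59, were lower. C-type lectins also split, with 31 of 113 higher, a share near that of all tested genes, and 42 lower, and 2 lay beyond both single mutants on the higher side and 9 on the lower. clec-10 had 3.09, 2.31, 2.26 and 2.2 in the double mutants, 7.88, 8.16, 7.81 and 7.62 in htz-1, 4.23, 3.08, 4.71 and 4.26 in daf-2 and 9.75, 10.33, 10.88 and 10.46 in wild type. The double mutants were lowest, 1 of them just above the lowest daf-2 library, and htz-1 lay between daf-2 and wild type. The gene had a change of −7.89 ± 0.30 (adjusted p = 1.64e-15). Of 19 tested pals genes, a family linked to the response to intracellular pathogens, 13 were higher and 0 lower, led by pals-26 with 5.29 ± 0.40. Without replicate 1 of wild type and of daf-2, 1 pals gene was lower.

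Enzymes that modify foreign compounds were higher in part. Of 61 cytochromes P450 35 were higher and 6 lower, with a median of 1.07 in the double mutant, 0.55 in htz-1 and 0.29 in daf-2, and 9 lay beyond both single mutants on the higher side. The 6 lower genes were 3 without wild-type replicate 2. The list mean was 7.48 to 7.53 in the double mutants, 6.90 to 7.11 in htz-1, 6.37 to 6.98 in daf-2 and 6.15 to 6.53 in wild type. cyp-14A1 had 10.75, 10.40, 10.59 and 10.47 in the double mutants, 9.03, 8.42, 8.71 and 8.39 in htz-1, 8.01, 7.99, 8.06 and 7.88 in daf-2 and 6.47, 8.16, 7.78 and 7.77 in wild type. The double mutants were above every other library, by 3.01 ± 0.26 from wild type and 1.92 past htz-1 (adjusted p = 8.7e-05). cyp-33C2, called in neither single mutant, had 7.25, 7.75, 7.30 and 7.58 in the double mutants, 4.54 to 5.29 in htz-1, 4.52 to 5.05 in daf-2 and 3.66 to 5.36 in wild type. The 3 other groups overlapped, and the double mutants lay 2.60 past them (adjusted p = 6.65e-05).

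cyp-34A9 had 11.31, 11.36, 11.36 and 11.37 in the double mutants, 8.47 to 9.50 in htz-1, 7.03 to 7.90 in daf-2, 7.69, 8.16, 10.10 and 8.16 in the triple mutants and 4.44 to 6.55 in wild type. It rose by 5.76 ± 0.47 (adjusted p = 5.77e-10), and its distance of 2.31 past htz-1 (adjusted p = 0.00539) was not called without replicate 4 of all genotypes. Of 40 glutathione S-transferases 24 were higher and 2, gst-26 with −1.26 and gst-27 with −1.09, were lower. gst-10 rose by 2.1 ± 0.17 and lay 1.19 past the larger single mutant (adjusted p = 0.000166). Of 60 UDP-glucuronosyltransferases 26 were higher and 13 lower, and the share lower was near the 24.1% over all tested genes. ugt-64 lay beyond on the lower side, with 8.09 to 8.36 in the double mutants, 9.58 to 10.29 in htz-1, 10.77 to 11.56 in daf-2 and 10.72 to 11.22 in wild type. ugt-64 overlaps C07G3.10 on the opposite strand.

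Proteins that handle damage moved in opposite directions by class. Of 20 superoxide dismutase, catalase and peroxiredoxin genes 12 were higher and 0 lower, and of 13 small heat shock proteins 10 were higher and 0 lower, led by hsp-16.1 with 3.16. Of 19 cytosolic and mitochondrial chaperones, which fold proteins, 1, hsp-70 with 3.19, was higher and 10 were lower, among them hsp-60 with −1.15. hsp-70 overlaps another gene on the opposite strand. The count of 10 was 4, 5 and 6 without double-mutant replicates 1, 3 and 4, 4 and 3 without wild-type replicates 1 and 3, 4 without replicate 1 of wild type and of daf-2, and 3 after centring on library medians. Of 26 autophagy genes 16 were higher and 2 lower, where htz-1 had the same counts and daf-2 had 0 and 0, and 1 was lower without replicate 1 of wild type and of daf-2. lgg-1, the ubiquitin-like protein of autophagosome membranes, rose by 1.56 ± 0.19, with 11.94 to 12.44 in the double mutants, 11.79 to 12.15 in htz-1, 10.69 to 11.20 in daf-2 and 10.19 to 11.01 in wild type.

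Intestinal genes were lower more often than higher. Of 35 tested intestine genes 17 were lower and 8 higher, with a median of −0.53 in the double mutant, −0.40 in htz-1 and −0.53 in daf-2, and 5 lay beyond both single mutants on the lower side and 2 on the higher, which was 1 without replicate 1 of wild type and of daf-2. The 8 higher genes made a share near the 25.8% over all tested genes. The list mean was 10.99 to 11.42 in the double mutants and 11.60 to 12.10 in wild type. vha-6, a subunit of the proton pump of the gut's apical membrane, had 10.33, 10.63, 10.08 and 10.32 in the double mutants, 11.55, 12.29, 11.77 and 11.50 in htz-1, 12.07, 12.08, 12.50 and 12.41 in daf-2, 12.02, 12.82, 12.36 and 12.61 in the triple mutants and 12.82, 13.16, 13.39 and 12.75 in wild type. All double mutants were below all other libraries, by −2.69 ± 0.20 from wild type (adjusted p = 1.28e-10) and −1.44 ± 0.20 past htz-1 (adjusted p = 0.000101).

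nhx-2, the sodium-proton exchanger that works with pept-1, had 7.61, 7.45, 7.28 and 7.23 in the double mutants, 8.74 to 8.87 in htz-1, 8.76 to 9.46 in daf-2 and 9.94 to 10.55 in wild type. It fell by 2.89 ± 0.17 on the log2 scale and lay −1.40 past the larger single change (adjusted p = 2.33e-05). ifc-2, an intermediate filament of the gut, had 10.44 to 10.61 in the double mutants, 10.64 to 11.34 in htz-1 and 13.18 to 14.05 in wild type and fell by 2.99 ± 0.21 on the log2 scale, with no call beyond htz-1 (adjusted p = 0.772). The esterase ges-1, at 10.55 in the double mutants and 9.13 in wild type, rose by 1.42 ± 0.26 (adjusted p = 8.99e-05). Of 21 subunits of the vacuolar proton pump 13 were lower and 1 higher, of 10 aquaporins 7 were lower and 0 higher, led by aqp-4 with −2.94, and of 10 amino acid and peptide transporters 6 were lower and 1 higher.

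Of 20 fat desaturases and elongases 10 were lower, where 24.1% of all tested genes were. The 5 that were higher made a share near the 25.8% over all tested genes. fat-2, a delta-12 desaturase, had 14.94, 15.04, 14.73 and 14.88 in the double mutants, 13.85 to 14.26 in htz-1, 13.44 to 13.62 in daf-2 and 13.37 to 13.63 in wild type, a rise of 1.39 ± 0.17. fat-7, a stearoyl-CoA desaturase, had 8.01, 8.06, 7.91 and 8.03 in the double mutants, 9.55, 10.29, 9.90 and 10.27 in htz-1, 8.39, 8.19, 8.39 and 8.06 in daf-2 and 11, 10.32, 11.38 and 10.73 in wild type. It fell by 2.85 ± 0.23 on the log2 scale (adjusted p = 3.77e-10), with daf-2 closest to the double mutant. Of 9 genes of dafachronic acid synthesis and related steps, which feed the hormone pathway of larval arrest, 1 was higher and 3 lower, among them daf-9 with −1.43 ± 0.38 and daf-36 with −2.13 ± 0.21, and daf-36 overlaps another gene on the opposite strand.

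Cuticle collagens, the structural proteins of the worm's outer layer, were mostly lower. Of 153 col genes on the list 111 were tested, 76 were lower and 10 higher, with a median of −2.17 in the double mutant, −2.39 in htz-1 and 0.07 in daf-2. Their mean was 7.37, 7.53, 6.95 and 7.37 in the double mutants, 6.80 to 7.33 in htz-1, 8.85, 10.08, 10.11 and 10.02 in daf-2 and 8.84, 10.17, 10.41 and 9.75 in wild type. The double mutants overlapped htz-1, and replicate 1 of daf-2 and of wild type lay below the rest of their groups. col-81 had 12.71, 13.07, 12.37 and 13.18 in the double mutants, 10.99, 11.21, 11.29 and 10.38 in htz-1, 16.34, 17.50, 17.86 and 17.73 in daf-2, 10.85, 11.58, 10.33 and 11.46 in the triple mutants and 17.30, 17.66, 18.41 and 17.48 in wild type. It fell by 4.88 ± 0.33 on the log2 scale (adjusted p = 2.39e-11) but lay above htz-1, a step back that was called (adjusted p = 0.000444). col-117 had the largest fall of all tested genes, −8.70 ± 0.83 (adjusted p = 7.93e-09), with 4.02, 5.54, 2.49 and 6.92 in the double mutants and 12.59, 13.88, 14.54 and 12.76 in wild type. Of the higher members, col-183 with 5.67 and col-95 with 4.85 stood at the other end.

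For a further set of genes the double mutant fell short of a single mutant's change. Such a gene was called in the single mutant against wild type, and the double mutant differed from the single mutant in the opposite direction. The rule sets no bound at wild type, so the double mutant can lie past it. Both tests use the libraries of that single mutant. For changes of htz-1 this held for 590 genes that were higher in htz-1 (4.07%) and 535 that were lower (3.69%). Of the 590, the double mutant was not called against wild type for 339, was still higher for 237 and was lower for 14, and of the 535 it was not called for 150, still lower for 377 and higher for 8. The median step back was −1.61 for the 590 and 1.34 for the 535. The count of 535 was 337 without double-mutant replicate 4, 347 and 354 without htz-1 replicates 1 and 4, and 817 without replicate 1 of wild type and of daf-2.

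Genes of hatching and of the embryonic sheath, which are used when an embryo makes its first cuticle and leaves the eggshell, were one such group. Of 24 tested, 16 were called higher in htz-1, 0 in daf-2 and 3 in the double mutant, and 15 fell short of the htz-1 change. The medians were 0.00 in the double mutant, 2.1 in htz-1 and −0.08 in daf-2. The list mean was 6.82, 6.62, 6.65 and 6.0 in the double mutants, 8.68 to 9.27 in htz-1, 6.26 to 6.51 in daf-2, 8.63 to 9.34 in the triple mutants and 6.02 to 6.63 in wild type. The double mutants overlapped wild type, and the triple mutants, replicate 3 included, overlapped htz-1.

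hch-1, the protease that lets the embryo hatch, had 4.06, 5.59, 5.98 and 0.86 in the double mutants, 10.68, 11.41, 10.84 and 10.40 in htz-1, 3.79, 3.33, 1.82 and 3.30 in daf-2, 10.56, 10.52, 10.52 and 10.13 in the triple mutants and 1.97, 2.23, 2.28 and 2.15 in wild type. The double mutants were spread widely, with replicate 4 below every wild-type library. Their difference from wild type was 1.96 ± 0.65 (adjusted p = 0.0151), not called without double-mutant replicate 2 or 3 (7 settings in all, 1.35 to 1.96), beside a change of 8.68 in htz-1, and the step back of −6.71 was called (adjusted p = 2.39e-07). noah-1, a zona pellucida domain protein of the embryonic sheath, had 6.53, 6.21, 6.85 and 5.43 in the double mutants, 10.52, 11.20, 10.98 and 10.76 in htz-1, 6.01, 6.07, 6.67 and 6.71 in daf-2, 9.95, 10.45, 11.01 and 10.18 in the triple mutants and 5.51, 5.31, 6.23 and 5.76 in wild type. The double mutants overlapped daf-2 and wild type and were far under htz-1 (difference from wild type 0.55 ± 0.28, adjusted p = 0.101; step back, adjusted p = 1.25e-10).

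dpy-14, an embryonic collagen, had 8.98, 8.03, 8.34 and 6.86 in the double mutants, 12.94, 13.47, 13.06 and 12.65 in htz-1, 7.93, 5.25, 4.78 and 3.79 in daf-2 and 3.97, 4.44, 4.70 and 5.0 in wild type. It rose by 3.52 ± 0.58 (adjusted p = 1.85e-05), less than the 8.50 in htz-1 (adjusted p of the step back = 1.93e-06). sym-1, an extracellular leucine-rich repeat protein, was 6.11, 5.38, 6.31 and 3.55 in the double mutants, 10.96 to 11.68 in htz-1 and 5.69, 7.53, 7.72 and 7.24 in wild type, a fall of 1.71 ± 0.43 on the log2 scale (adjusted p = 0.0018) where htz-1 rose by 4.24. It overlaps C44H4.4 on the opposite strand. sqt-3, a collagen needed for body shape, was −2.05 ± 0.48 from wild type in the double mutant and 2.45 in htz-1.

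**Figure D5:**
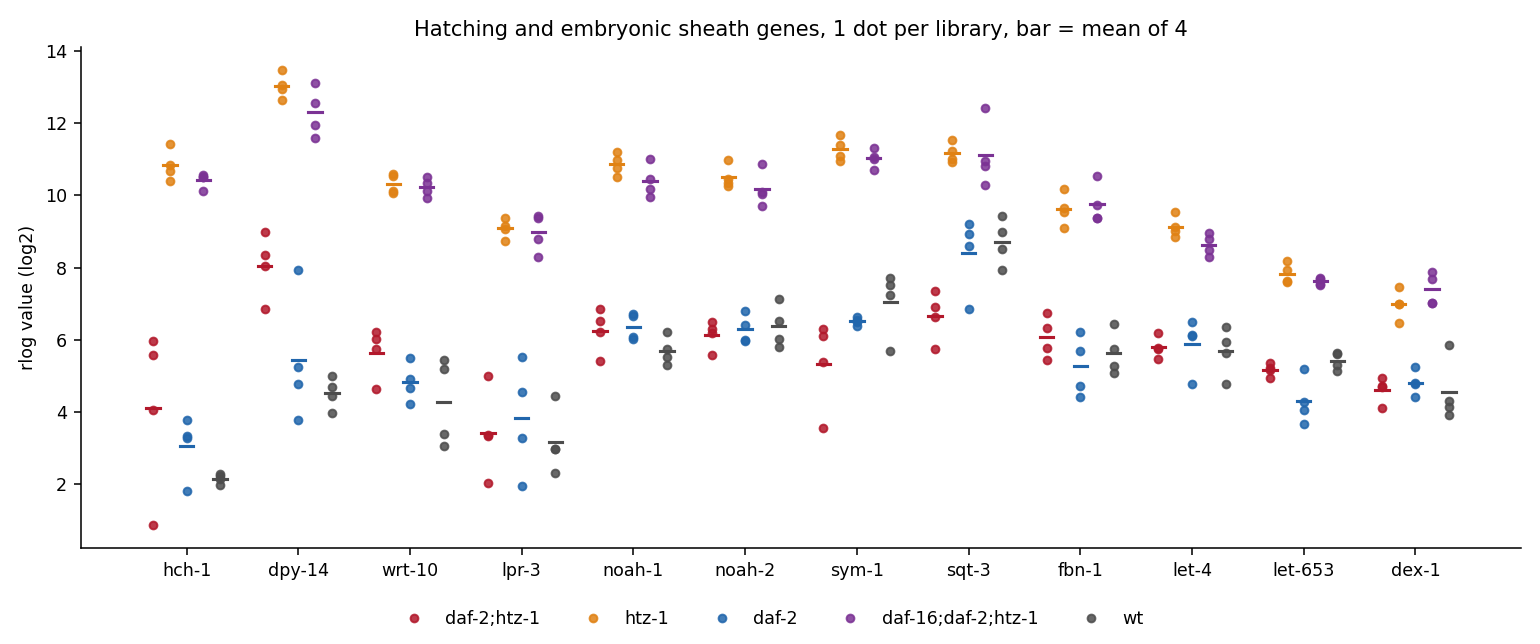
rlog values of 12 hatching and embryonic sheath genes in each library of daf-2;htz-1, htz-1, daf-2, the triple mutant and wild type. For noah-1, htz-1 and the triple mutant sit at 9.95 to 11.20 and the double mutant at 5.43 to 6.85, within reach of daf-2 and wild type.

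Among the 535 genes lower in htz-1, vap-2, a secreted venom-allergen-like protein, had 10.65, 10.55, 10.58 and 10.85 in the double mutants, 6.52, 5.95, 6.08 and 5.01 in htz-1, 10.09, 11.71, 11.58 and 11.90 in daf-2, 4.99, 5.37, 6.99 and 5.17 in the triple mutants and 9.06, 10.85, 10.80 and 10.64 in wild type. The double mutants overlapped daf-2 and wild type, and the triple mutants overlapped htz-1. Its difference from wild type was 0.32 ± 0.43 (adjusted p = 0.564), beside −4.45 in htz-1, and it overlaps ttr-14 on the opposite strand. bli-6, a cuticle collagen, had 6.88 to 8.03 in the double mutants, 3.53 to 5.09 in htz-1, 10.31 to 11.23 in daf-2 and 9.57 to 10.58 in wild type, still a change of −2.73 ± 0.33 (adjusted p of the step back = 2.55e-07).

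Other embryonic lists held genes that fell short of htz-1 too. Proneural bHLH factors, which commit cells to the neural fate, were higher in the double mutant for 5 of 6 tested and in htz-1 for 6, and 4 fell short of htz-1. The count of 5 was 3 without double-mutant replicate 2 or 3 or wild-type replicate 2 or 3, and 3 and 2 under other scalings of the libraries. Their mean was 4.16 to 4.74 in the double mutants, 6.01 to 6.37 in htz-1, 2.96 to 4.14 in daf-2 and 2.81 to 3.13 in wild type. Early zygotic genes, transcribed when the embryonic genome is first used, were higher for 20 of 24 and lower for 0, with a median of 1.68 in the double mutant, 2.40 in htz-1 and 0.91 in daf-2, and 7 fell short of htz-1. Without replicate 1 of wild type and of daf-2, 11 fell short, and without replicate 3 of the triple mutant 10 did. Their mean was 4.96 to 5.15 in the double mutants, 5.60 to 5.81 in htz-1, 3.94 to 4.75 in daf-2 and 3.62, 3.24, 3.19 and 3.25 in wild type, and no group overlapped another. sdz-28 was an example, with 4.24 to 4.74 in the double mutants, 5.20 to 6.29 in htz-1, 1.88 to 3.77 in daf-2 and 1.76 to 2.25 in wild type, a rise of 2.54 ± 0.36. How many embryos these adults held was not recorded in the labels, and its part in these differences was not tested.

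Core histones were higher for 35 of 50 tested and lower for 2, with a median of 1.12 in the double mutant, 1.37 in htz-1 and −0.05 in daf-2, and 9 fell short of htz-1. Many of these genes have near-identical copies, so the reads of single members are uncertain. his-61 had 9.34 to 9.57 in the double mutants, 9.3 to 9.82 in htz-1, 5.65 to 6.30 in daf-2 and 5.58 to 6.53 in wild type, a rise of 3.29 ± 0.27. Linker histones differed among themselves: hil-7 had 4.51, 5.57, 3.45 and 2.2 in the double mutants, 7.76 to 8.46 in htz-1, 1.48 to 2.11 in daf-2 and 1.57 to 1.96 in wild type and fell short of htz-1 (adjusted p = 2.36e-06). hil-1 rose by 3.56 ± 0.46 and lay 2.02 beyond both single mutants (adjusted p = 0.014), not called without replicate 1, 2 or 4 of all genotypes. Of 13 genes of H2A.Z deposition complexes, 2 were higher, htz-1 itself and the actin-related protein arp-6 with 0.45, and 3 were lower, with ruvb-1 at −0.80. The share lower was near the 24.1% over all tested genes.

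Sperm genes were lower. All 29 tested major sperm protein genes, the cytoskeleton of crawling sperm, were lower, with a median of −3.18 in the double mutant, −4.09 in htz-1 and −0.95 in daf-2, and 6 of them were higher in the double mutant than in htz-1. Their mean was 9.90, 9.49, 9.61 and 9.91 in the double mutants, 8.72 to 9.10 in htz-1, 10.65, 12.77, 13.11 and 12.03 in daf-2 and 12.76 to 13.53 in wild type. The double mutants were between htz-1 and daf-2, and replicate 1 of daf-2 was the lowest of its group. msp-53 had 12.60, 12.17, 12.34 and 12.44 in the double mutants, 11.09 to 11.71 in htz-1, 13.27, 14.91, 14.81 and 14.77 in daf-2 and 15.25 to 15.90 in wild type, a change of −3.11 ± 0.33 (adjusted p = 3.56e-08). These genes are near-identical copies, so their single values are uncertain. Of 86 other sperm genes 54 were lower and 12 higher, among them the phosphatase gsp-3 with −3.05.

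Of 45 oogenesis and eggshell genes 12 were lower, a share near the 24.1% over all tested genes, and 3 were higher, with a median of −0.24. The 12 became 6 without double-mutant replicate 1 or wild-type replicate 3, 7 without wild-type replicate 1, 7 without that library and replicate 1 of daf-2, and 7 after centring on library medians. The eggshell protein cbd-1 was lower by 0.95 without a term for the labelled batch (adjusted p = 0.0404), a call lost in 11 of 32 settings. Among these were the fit with that term, centring on library medians, and omission of double-mutant replicate 1 or 3 or of wild-type replicate 1 or 3. Of 6 vitellogenins, the yolk proteins made by the gut, 1, vit-1 with −2.98 ± 0.48, was lower and the others were not called. Of 41 muscle genes 19 were lower and 4 higher, with a median of −0.50, and 8 were lower without wild-type replicate 3. The 4 higher genes were 2 without double-mutant replicate 1 or wild-type replicate 2 or 3. The muscle list averaged 10.64 to 10.83 in the double mutants, 10.65 to 11.02 in htz-1, 10.20 to 10.58 in daf-2 and 11.04, 10.87, 11.56 and 10.91 in wild type. unc-52, the perlecan that anchors body wall muscle, fell by 1.97 ± 0.34 on the log2 scale, and it overlaps another gene on the opposite strand.

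F-box genes, whose products select proteins for degradation, belong to a large and quickly changing family in worms. Of 163 tested, 96 were higher and 11 lower, with a median of 0.97 in the double mutant, 1.09 in htz-1 and 0.22 in daf-2, and 37 fell short of the htz-1 change, 8 lay beyond both single mutants on the higher side and 1 on the lower. Their mean was 5.55 to 5.73 in the double mutants, 5.81 to 6.01 in htz-1, 4.77 to 5.24 in daf-2 and 4.50 to 4.92 in wild type. A minimum mean of 5 cut the genes tested from 14482 to 11445 and removed weakly read members of this list, and 44 were then higher. The number of members left was not counted, so 44 cannot be set against the 96.

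A few genes showed the reverse relation, with a change of daf-2 that the double mutant fell short of. Of genes higher in daf-2 this held for 28 (0.193%) and of those lower for 104 (0.718%), and the first count was 54 without replicate 3 of the triple mutant. Of the 28 the double mutant was not called for 21, still higher for 5 and lower for 2, and of the 104 it was not called for 60, still lower for 2 and higher than wild type for 42. Y49E10.16, uncharacterized, had 4.67, 5.47, 5.24 and 4.93 in the double mutants, 4.67, 4.54, 5.01 and 4.22 in htz-1, 9.04, 9.62, 9.53 and 9.69 in daf-2, 9.64, 9.39, 9.98 and 9.68 in the triple mutants and 5.49, 5.68, 6.18 and 5.01 in wild type. It was high in daf-2 and in the triple mutants, and the double mutants overlapped htz-1 and wild type. Its difference from wild type was −0.52 ± 0.24 (adjusted p = 0.0753), called in 4 of 32 settings, the term for the labelled batch among them. The step back of Y49E10.16 from daf-2 had an adjusted p of 2.28e-10.

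F33H12.7 had 13.02, 13.03, 13.15 and 12.93 in the double mutants, 10.84 to 11.23 in htz-1, 7.44, 4.07, 2.88 and 4.03 in daf-2 and 6.76, 10.55, 8.41 and 8.93 in wild type. The double mutants were above all other groups and daf-2 mostly below wild type, a rise of 4.37 ± 0.69 with a called step from daf-2 (adjusted p = 0.00151). The 5 tested pud genes were higher than wild type in the double mutant and in each single mutant, with medians of 1.31, 3.62 in htz-1 and 3.51 in daf-2. 4 of them fell short of htz-1 and 4 of daf-2. pud-1.2 had 12.53, 12.23, 11.39 and 11.88 in the double mutants, 13.58 to 14.90 in htz-1, 13.59 to 14.98 in daf-2, 14.06 to 15.73 in the triple mutants and 10.27 to 11.03 in wild type. The single and triple mutants overlapped one another above the double mutants, whose rise was 1.31 ± 0.37 (adjusted p = 0.00455). The count of 5 was 3 without double-mutant replicate 1 or wild-type replicate 3.

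The triple mutants show where the called sets lie when daf-16 is mutated as well, as a description only, since the sets were chosen on the double mutants. The median of the 270 genes beyond both single mutants was 8.89 to 9.02 in the double mutants, 7.33 to 7.54 in htz-1, 6.80 to 7.09 in daf-2, 7.21, 6.65, 7.75 and 6.75 in the triple mutants and 5.86 to 6.43 in wild type. In triple-mutant replicates 1 to 4, 258, 264, 223 and 263 of the 270 genes were nearer to the single mutant with the larger change than to the double mutant. The median of the 590 genes that fell short of htz-1 was 5.58 to 5.76 in the double mutants, 7.59 to 7.82 in htz-1, 5.10 to 5.27 in daf-2, 7.20 to 7.72 in the triple mutants and 4.91 to 5.0 in wild type. The genes short of the daf-2 change were placed otherwise: 7, 6, 9 and 5 of the 28 and 8, 15, 6 and 11 of the 104 were nearer to daf-2 than to the double mutant in triple-mutant replicates 1 to 4, so Y49E10.16 and pud-1.2, where the triple mutants lay with daf-2, are not typical of that set.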

How the data were processed

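Whole worms were lysed in Trizol, RNA was purified with miRNeasy Micro and libraries were made with SMART-Seq2, which does not mark strand, per the labels' protocols. The values are the log2 rlog values the authors deposited, with 1 value for each gene in each of 24 libraries, all in 1 table. Per the submitters' processing notes, which list names without their roles, bcl2fastq 2.20, kallisto 048.0 and WBcel235 were used. How the rlog step was set, and whether batches were corrected, is not stated in the labels used here. Depth is unknown, so no counting interval was computed.

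Libraries were grouped by label. limma 3.58.1 in R 4.3.3 fitted 1 mean per genotype over all 24 libraries, with an intensity trend and 18 residual degrees of freedom, to 14482 genes with a mean of at least 3, and Benjamini-Hochberg adjustment ran over all of them. A gene was beyond both single mutants by the largest of 3 p-values, and short of a single mutant by the largest of 2. The fit was tested on simulated data. Tables were handled with pandas 2.3.3 in Python 3.11.15, and opposite-strand overlaps came from Ensembl release 115. Gene symbols came from reference annotation, which gave them for 20315 genes and not for 1374.

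Named genes were those of the insulin and H2A.Z system and the 8 largest changes per direction. The 10 genes farthest beyond both single mutants and the 4 strongest shortfalls, per direction, were named too. Each of 61 lists gave at most 3 called genes per direction, ranked by their limma p against wild type and not by size of change. Up to 2 list members beyond both single mutants per direction, and the members of short lists, were added. A few others were named after their values were seen. The members and lists were chosen with earlier results of these data known. The replicate number equals the labelled batch, with 1 library of every genotype in each of 4 batches, so the numbers pair libraries through that label. Deviations of same-numbered libraries correlated at −0.217 to 0.004 between the double mutants and wild type, −0.033 to 0.273 between the double mutants and htz-1, and 0.403 to 0.513 between daf-2 and wild type. A replicate block was an alternative, beside other scalings, filters, array weights, smaller sets of libraries and omission of each library or replicate number, 32 in all. Leaving out replicate 3 of the triple mutant, and replicate 1 of wild type and daf-2, was chosen after seeing the data. Promoter sequences were not analysed here.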

Additional observations from a re-analysis of the deposited data

Results flagged for a closer look

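Of 268 values checked in groups of 4, 18 had 1 library far from its other 3, by Dixon's criterion at the 95% level; chance flags about 1 group in 20. In the double mutants, the library that stood apart was replicate 3 for clec-52 (9.60, others' median 10.03), replicate 1 for clec-10 (3.09, 2.26), replicate 4 for the htz-1 gene (11.28, 11.35), replicate 2 for B0205.13 (11.3, below the other 3) and replicate 4 for ZC116.5 (6.48, 6.04). In the htz-1 mutants it was replicate 1 for col-167 (5.85, 4.41) and for the cytochrome P450 list mean (7.11, 6.90), and replicate 2 for nphp-1 (9.08, 8.19) and clec-265 (10.3, 9.44). In the daf-2 mutants it was replicate 1 for col-167 (10.3, 12.34), D1086.9 (4.19, 1.21) and the collagen list mean (8.85, 10.08), and replicate 3 for Y48E1B.8 (8.42, 8.08). In wild type it was replicate 3 for daf-16 (11.3, 10.6), replicate 2 for dao-6 (3.24, 1.74), replicate 4 for clec-170 (7.87, 7.49), and replicate 1 for vap-2 (9.06, 10.8) and the early zygotic list mean (3.62, 3.24).

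The effect of htz-1(bon101) on a gene differed between daf-2 and wild-type backgrounds for hch-1, by −7.62 (adjusted p = 6.86e-06), and for mtl-1, by −6.23 (adjusted p = 0.00166), both by limma's test of the difference. These genes were not alone: over all tested genes the same test was positive for 1126 (7.78%) and negative for 806 (5.57%).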

How the results depend on the processing

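Depth is unknown and rlog shrinks low genes, which limits what can be called among weakly read genes. With single libraries or replicate numbers left out, the genes called against wild type ranged from 2894 to 3827 (higher) and 2861 to 3572 (lower), those beyond both single mutants from 76 to 349 and 35 to 97, those short of htz-1 from 340 to 637 and 137 to 706, those short of daf-2 from 9 to 54 and 39 to 138, and departures from additivity from 278 to 1579 (positive) and 350 to 902 (negative). With array weights, 633 and 219 genes lay beyond both single mutants, 1082 and 1387 fell short of htz-1, and 1905 positive departures were called. A minimum mean of 5, with 11445 genes tested, left 369 genes short of the htz-1 rise. Leaving out replicate 1 of wild type and daf-2 gave 817 short of the htz-1 fall. A required difference of 1 log2 unit left 2338 higher and 2296 lower genes. With the replicate block, 3781 and 3514 genes were called against wild type and 280 and 94 lay beyond both single mutants. Among the genes and list counts named in the text or by the rule for naming genes, the block changed the calls of Y49E10.16, asm-3 and bli-1 (then called) and of cbd-1, fbxa-98, ist-1 and ptr-2 (then not called), moved the count of lower embryonic lineage genes to 2 from 1, and changed no other call among them. No result changed direction while called. The cause of these shifts was not tested.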
